A study of Rhododendron with 15 samples.

Results

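The genes described here are those that the deposited annotation of Rhododendron 'xiaotaohong' leaves places in protein processing in the endoplasmic reticulum (ER), a pathway of the KEGG database. A gene was a member where its KEGG field held that pathway and neither ubiquitin-mediated proteolysis nor the proteasome. Its description also had to lack the words of the large chaperone families: heat shock, HSP, DnaJ, crystallin, luminal-binding and endoplasmin. The table listed 29985 genes, of which 357 carried the pathway. Of these, 60 also carried an excluded pathway and 70 had a chaperone word, which left 227 members. The rule reads the annotation and no measured value, but it was set with earlier results of these data known.

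The study asked, by its title, how melatonin enhances the tolerance of Rhododendron to high temperature. Leaf polyA RNA of a single cultivar was sequenced in 15 libraries, 3 for each of 5 groups: 35 °C with melatonin, 40 °C with melatonin, 35 °C without melatonin, 40 °C without melatonin, and the control at 25 °C without melatonin. Melatonin is an indoleamine that plants also make themselves. Neither the melatonin dose nor the length of the heat treatment is stated in the labels. Nothing in them tells whether replicates came from separate plants, so p-values measure the spread between these libraries, which may be technical. Levels are given in FPKM, fragments per kilobase of transcript and per 1e6 fragments, as the authors deposited them. Fold changes are log2 values with their standard errors (SE) from edgeR's quasi-likelihood test on the counts. Overlap between groups was read from FPKM, which lacks the TMM scaling behind the fold changes, so overlap and fold change can disagree. A gene was called, and is said to have risen or fallen, at a Benjamini-Hochberg adjusted p under 0.05 over the 26183 genes tested.

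Secretory and membrane proteins enter the ER through the Sec61 translocon, receive a glycan from the oligosaccharyltransferase, and fold with help from the calnexin and calreticulin lectins and the protein disulfide isomerases. Folded cargo leaves in COPII vesicles, and misfolded protein is pulled back to the cytosol by ER-associated degradation (ERAD), in which the CDC48 ATPase extracts ubiquitinated substrates. Heat unfolds ER proteins, and plant cells answer with the unfolded protein response (UPR), in which the sensor IRE1 splices the mRNA of a bZIP transcription factor.

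The members were a mixed group by description. A word taken for a role in the pathway stood in the description of 118 of the 227, of which 37 fell under ERAD, 21 under COPII, 15 under disulfide formation, 12 under the translocon, 10 under the calnexin cycle and glycan trimming, 8 under the oligosaccharyltransferase, 8 under the UPR and 7 under BAG cochaperones. Several of these words, such as E3, RING, ubiquitin and BAG, do not themselves name the ER. The other 109 carried the pathway without such a word, among them 38 with no informative description and 14 described as 1-aminocyclopropane-1-carboxylate oxidase or a related oxygenase, which the table files under the KEGG entry of CDC48. The table's own gene ontology terms named the endoplasmic reticulum for 65 of the 118 (55.1%), for 18 of the other 109 (16.5%) and for 620 of the 29758 genes that were not members (2.08%). The annotation thus backs the label for the 118 members with a role more than for the rest, which are described apart.

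Library totals lay between 54300447 and 68267949 counts, and the members took 0.929 to 1.13% of the counts, by group mean. Of the 227 members, 206 passed the filter on low counts, 21 did not, and 1 had no count in any library. The mean level over the 15 libraries was at least 100 FPKM for 6 members, at least 10 FPKM for 110 and under 1 FPKM for 56. Counts sum over several genes at 18 merged loci, and 62 members overlap another locus in the table's coordinates. Neither strand use in the authors' counting nor their genome build is named in the labels or the table. Reads of overlapping loci can therefore not be told apart, and close paralogs may share reads. Coordinates are printed as the table gives them.

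The makeup of the leaf RNA also differed between groups. The summed level of 9 mesophyll markers (Rubisco small subunit and chlorophyll a-b binding proteins) lay between 10537.5 and 10638.8 FPKM at 40 °C with melatonin, between 1954.09 and 1969.8 FPKM at 40 °C without it, and between 14597.4 and 15534.1 FPKM at 25 °C. All 9 fell at 40 °C against 25 °C, and all 9 were higher with melatonin at 40 °C. At 35 °C they averaged 12858 FPKM with melatonin and 14296 FPKM without. The 51 epidermis and guard cell markers, 1 of them at 0 in every library, averaged a sum of 520 FPKM at 35 °C and 151 FPKM at 40 °C with melatonin. Without melatonin they averaged 861 FPKM at 25 °C, 385 FPKM at 35 °C and 76.4 FPKM at 40 °C. The 15 phloem markers averaged 143 FPKM at 35 °C and 84.3 FPKM at 40 °C with melatonin, and 286 FPKM at 25 °C, 456 FPKM at 35 °C and 96.6 FPKM at 40 °C without it. Of these 15, 5 rose and 8 fell at 40 °C against 25 °C, and 5 rose and 4 fell at 35 °C against 25 °C. With melatonin, 7 of them were higher and 4 lower at 40 °C (32.9% and 26.2% of all genes). At 35 °C, 2 were higher and 8 lower with melatonin (9.7% and 12.3% of all genes). The phloem sums thus do not stand for each marker. The 30 xylem markers averaged a sum of 59.0 FPKM at 35 °C and 38.9 FPKM at 40 °C with melatonin. Without it they averaged 57.8 FPKM at 25 °C, 42.1 FPKM at 35 °C and 37.9 FPKM at 40 °C. Though the sums at 40 °C were close, 9 of the 30 were higher and 3 lower with melatonin there. The 2 root markers reached no more than 1.43 FPKM in any library. Genes placed on the Mt sequence took 0.0619% of the counts at 40 °C with melatonin, 0.214% at 40 °C without it and 0.0239% at 25 °C. In bulk leaf RNA, fewer cells of a type and less RNA per cell cannot be told apart, and the part of these shifts in the values that follow was not tested.

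Heat at 40 °C moved about as many members up as down. Of the 206 tested, 78 rose and 73 fell at 40 °C against 25 °C, which is 37.9% and 35.4%, and among all genes 37.3% rose and 38.6% fell. The median log2 change was 0.07 over the members and -0.01 over all genes. At 35 °C against 25 °C, 44 members rose (21.4%, against 25.5% of all genes) and 68 fell (33.0%, against 23.6%), with medians of -0.05 and 0.01. At 40 °C against 35 °C, 84 rose (40.8%, against 32.8% of all genes) and 50 fell (24.3%, against 36.5%), with medians of 0.10 over the members and -0.07 over all genes. With library totals in place of TMM scaling the same comparison gave 69 higher and 62 lower, with 7679 and 10643 of all 26183 genes. Relative to the median of all genes the members lay at 0.17 with TMM and at 0.18 with library totals. Changes of at least 2-fold at 40 °C against 25 °C were called for 42 members upward and 29 downward, with 24.4% and 25.9% of all genes. At 35 °C against 25 °C they were called for 17 upward and 8 downward, with 8.72% and 7.98% of all genes, and at 40 °C against 35 °C for 32 and 14, with 18.7% and 21.8% of all genes.

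With melatonin, 109 members were called at 40 °C and 37 at 35 °C. At 40 °C with melatonin against 40 °C without, 45 members were higher (21.8%, against 32.9% of all genes) and 64 lower (31.1%, against 26.2%), with a median of -0.09 over the members and 0.10 over all genes. At 35 °C with melatonin against 35 °C without, 12 were higher (5.83%, against 9.7% of all genes) and 25 lower (12.1%, against 12.3%), with medians of 0.01 and 0.00. These directions depend on the scaling, since with library totals 71 were higher and 46 lower at 40 °C, and 33 higher and 14 lower at 35 °C. Of all 26183 genes, library totals gave 10715 higher and 5311 lower at 40 °C, and 3915 and 1779 at 35 °C. Library totals moved the median of all genes from 0.10 to 0.29 at 40 °C and from 0.00 to 0.11 at 35 °C. Relative to that median the members lay at -0.19 with TMM and at -0.20 with library totals at 40 °C. The melatonin effect at 40 °C minus that at 35 °C was called positive for 40 members (19.4%, against 27.2% of all genes) and negative for 51 (24.8%, against 21.3%). That split was 45 and 44 with library totals, and 35 and 67 both with RLE scaling and with DESeq2. The all-gene split moved too, with 7886 positive and 5044 negative with library totals, 6321 and 6209 with RLE, and 6602 and 6510 with DESeq2. Relative to the median of all genes, the members lay at -0.15 with TMM, with RLE and with library totals. Without any one of the 3 libraries at 35 °C with melatonin, or without replicate 3 at 35 °C, the count higher with melatonin at 35 °C was between 4 and 6. At least 2-fold, 12 members were higher and 9 lower with melatonin at 40 °C (16.2% and 11.1% of all genes), 1 was higher and 1 lower at 35 °C (3.93% and 0.672% of all genes), and the difference of the effects was positive for 8 and negative for 9 (13.7% and 10.5% of all genes).

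Members with a role word moved in both directions at 40 °C, and with melatonin at 40 °C more of them were lower than higher with TMM scaling. At 40 °C against 25 °C, 47 of the 111 tested rose (42.3%, against 37.3% of all genes) and 39 fell (35.1%, against 38.6%), and of the 95 others 31 rose and 34 fell. With library totals 45 of the 111 rose and 41 fell, and of all 26183 genes 9241 rose and 10582 fell. At 40 °C with melatonin against 40 °C without, 25 of the 111 were higher (22.5%, against 32.9% of all genes) and 46 lower (41.4%, against 26.2%), and of the 95 others 20 were higher and 18 lower. With library totals this split of the 111 was 36 higher and 37 lower, and of all 26183 genes 10715 were higher and 5311 lower. Relative to the median of all genes, the 111 lay at -0.245 with TMM and at -0.267 with library totals. Counts with library totals given below for single roles stand beside these all-gene counts. Levels of all members with a role word summed to 3140 ± 29 FPKM at 40 °C and 2616 ± 14 FPKM at 25 °C (SD, n = 3 each), and to 2639 ± 21 FPKM at 40 °C with melatonin. The difference between the 111 and the others was not tested.

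**Figure D1:**
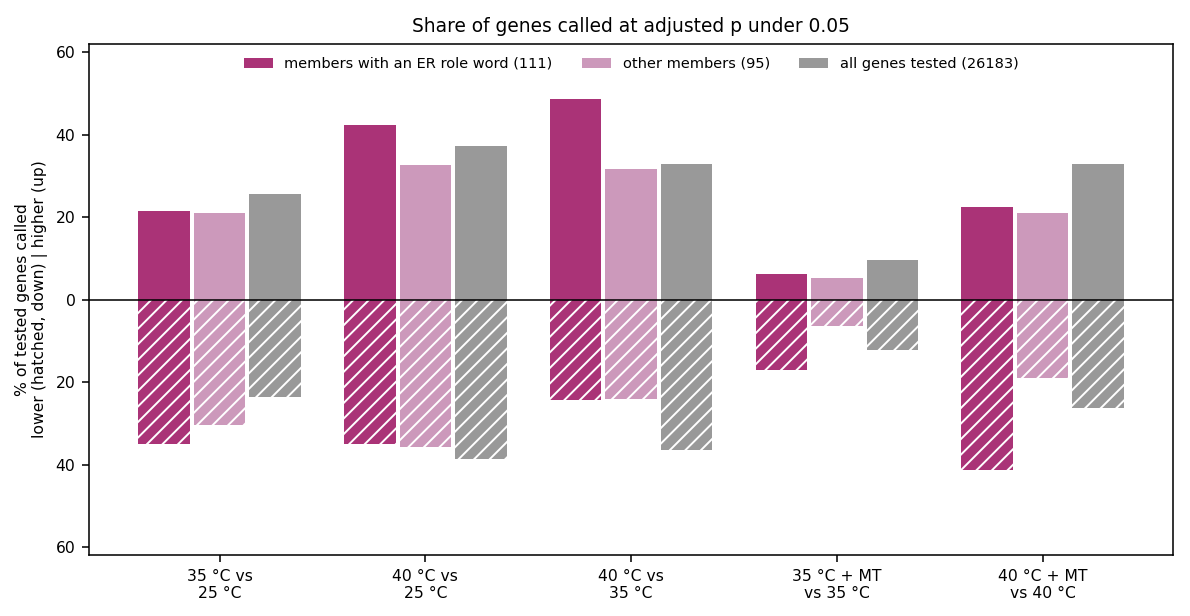
Share of tested genes called higher (upward bars) and lower (hatched, downward bars) in percent, in 5 comparisons, for the 111 members with a role word, the 95 other members and all 26183 genes. At 40 °C against 25 °C 47 of the 111 rose and 39 fell, and with melatonin at 40 °C 46 of the 111 were lower and 25 higher.

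Of the 12 translocon members, 3 rose (25.0%, against 37.3% of all genes) and 7 fell (58.3%, against 38.6%) at 40 °C against 25 °C, with a median log2 change of -0.74, and library totals gave the same counts. The difference between the class and all genes was not tested. The α subunit of Sec61, which forms the channel itself, was read from MSTRG.6466 (chromosome 4, 2858137 to 2863888, minus strand), with 91.2, 83.3 and 82.9 FPKM at 40 °C and 68.5, 67.7 and 67.2 FPKM at 25 °C. The groups did not overlap, and the gene rose by a log2 change of 0.43 ± 0.04 (SE, edgeR adjusted p of 2.6e-07). A second α locus, MSTRG.3428, which overlaps another locus, rose by 0.90 ± 0.09, and a further one, MSTRG.11526, had a log2 change of -0.26 and was not called. All 3 α loci were lower at 40 °C with melatonin than without, by log2 values of -0.75, -0.78 and -0.66.

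All 3 loci of the γ subunit, a small membrane anchor of the channel, fell at 40 °C. MSTRG.13930 (chromosome 8, 4699954 to 4702473, plus strand, overlapping 2 other loci) had 25.8, 20.2 and 26.5 FPKM at 25 °C, 14.1, 14.1 and 14.2 FPKM at 35 °C, and 7.67, 6.72 and 6.68 FPKM at 40 °C. Its level was lower at each higher temperature with no overlap, with a log2 change of -0.83 ± 0.16 at 35 °C and -1.69 ± 0.16 at 40 °C (edgeR adjusted p of 5.5e-04 and 2.4e-07). The other γ loci, MSTRG.14936 and MSTRG.17016, fell by 1.35 and 0.94 on the log2 scale at 40 °C. TRAP, a complex bound to the channel, fell as well at its α subunit MSTRG.8660 (-0.54) and its β subunit MSTRG.13910 (-0.98).

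The loci described as β subunit of Sec61 were called in opposite directions, and MSTRG.211, described as a SecG or Sec61-β family protein, was not called. The merged locus MSTRG.968 (chromosome 1, 19053465 to 19074295, plus strand) had 18.2, 19.6 and 18.4 FPKM at 40 °C with melatonin, against 57.96, 45.7 and 49.9 FPKM at 40 °C without it. At 25 °C it had 16.3, 18.8 and 19.4 FPKM, so only the 3 libraries at 40 °C without melatonin were high. The log2 change was 1.58 ± 0.09 at 40 °C against 25 °C and -1.64 ± 0.09 for melatonin at 40 °C (edgeR adjusted p of 5.2e-10 and 9.6e-10), while at 35 °C with melatonin it had 21.0 ± 1.3 FPKM, against 20.6 ± 0.6 FPKM without (SD, n = 3 each). MSTRG.1673, with 3.42, 7.16 and 7.80 FPKM at 40 °C and 18.6, 13.2 and 20.9 FPKM at 25 °C, fell by 1.42 on the log2 scale. Because MSTRG.968 sums over more than 1 gene, its values cannot be assigned to the β subunit alone.

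A TRAP β locus, MSTRG.21306 (chromosome 12, 26486314 to 26496042, plus strand), had the largest rise with melatonin among the translocon members. It had 8.89, 9.88 and 9.40 FPKM at 40 °C with melatonin, 1.47, 1.56 and 1.02 FPKM at 40 °C without it, and 3.31, 2.89 and 2.96 FPKM at 25 °C. The libraries with melatonin were above those of both other groups, with a log2 change of 2.60 ± 0.19 (edgeR adjusted p of 1.7e-08). At 35 °C it had 6.12, 6.01 and 5.61 FPKM with melatonin and 4.37, 3.93 and 2.90 FPKM without. That log2 change of 0.56 ± 0.17 was not called without replicate 2 or 3 at 35 °C or without any library at 35 °C with melatonin. Over the translocon, 5 members were higher (41.7%, against 32.9% of all genes) and 4 lower (33.3%, against 26.2%) with melatonin at 40 °C.

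**Figure D2:**
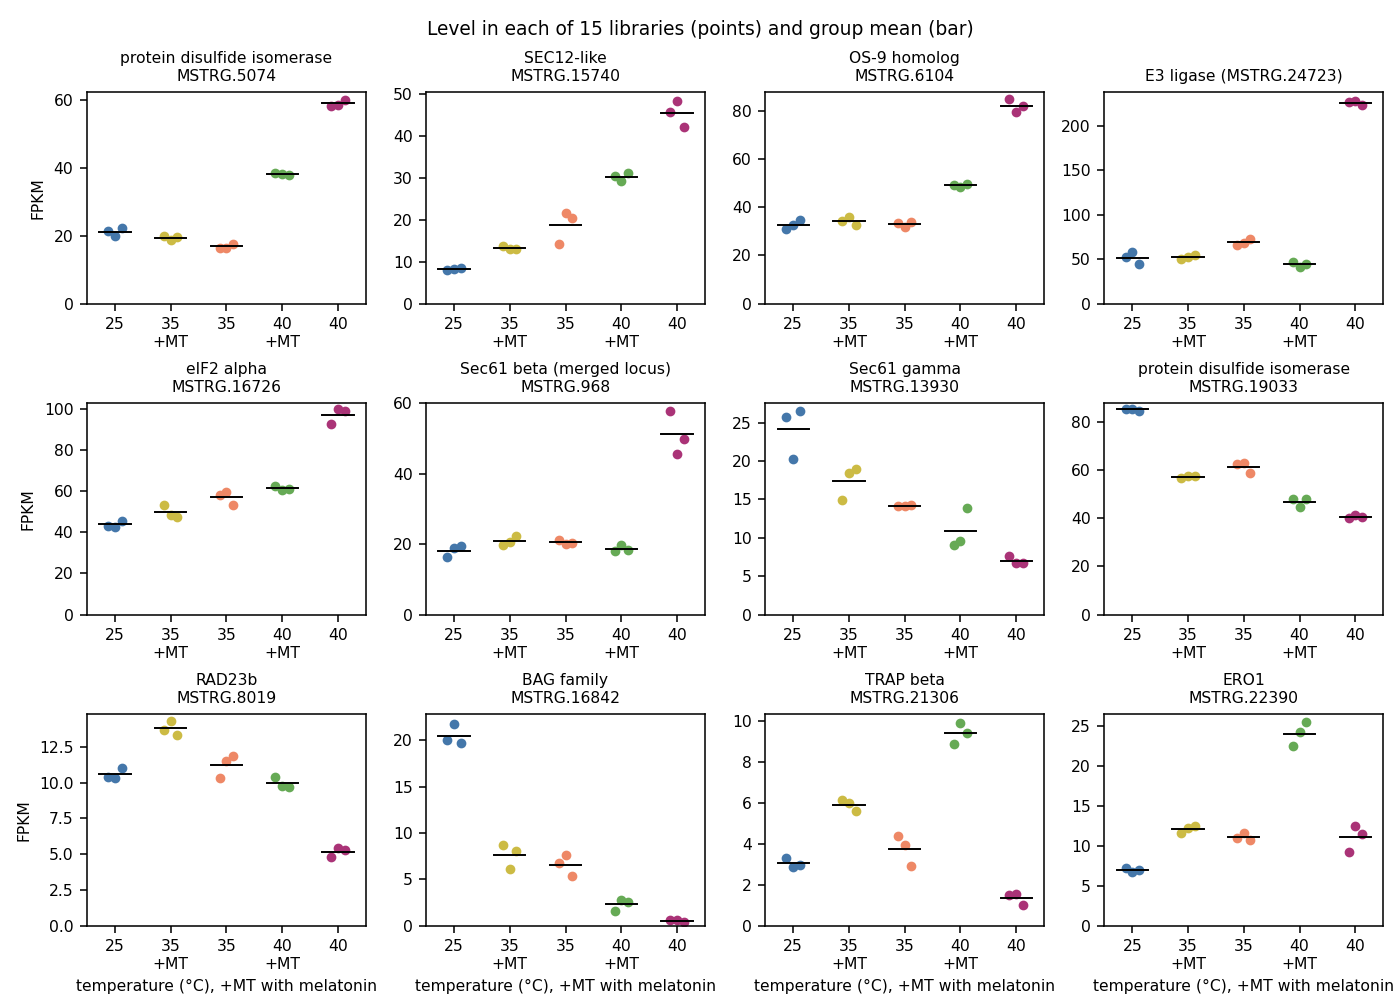
FPKM of 12 members in each of the 15 libraries (points; linear axes from 0), with the mean of each group as a bar, in the order 25 °C, 35 °C with melatonin, 35 °C, 40 °C with melatonin and 40 °C. The E3 locus MSTRG.24723 reached 227, 228 and 223 FPKM only at 40 °C without melatonin, and the BAG locus MSTRG.16842 was at its highest at 25 °C. MSTRG.968 is a merged locus.

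The oligosaccharyltransferase changed little in sum, with 278 ± 7 FPKM at 40 °C and 258 ± 2 FPKM at 25 °C (SD, n = 3 each). Of its 8 members 3 rose (37.5%, against 37.3% of all genes) and 3 fell (37.5%, against 38.6%), none by 2-fold. The catalytic subunit STT3B, MSTRG.20996, had 40.5, 44.8 and 45.2 FPKM at 40 °C with melatonin, 61.1, 66.3 and 66.3 FPKM at 40 °C without it, and 45.1, 41.9 and 42.1 FPKM at 25 °C. Its level at 40 °C without melatonin stood above both other groups, with a log2 change of 0.67 ± 0.05 for heat and -0.76 ± 0.05 for melatonin (edgeR adjusted p of 2.6e-08 and 1.5e-08). DAD1, a small subunit named after its role against cell death in animals, was read from MSTRG.18652. It fell by 0.65 on the log2 scale at 35 °C and by 0.38 at 40 °C. With melatonin at 40 °C, 6 of the 8 members were lower (75%, against 26.2% of all genes) and 1 higher (12.5%, against 32.9%). Library totals gave 4 lower and 1 higher.

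Genes of the calnexin cycle, which holds and trims new glycoproteins, split evenly at 40 °C against 25 °C. Of 10, 4 were higher (40%, against 37.3% of all genes) and 4 lower (40%, against 38.6%). Calreticulin-3, MSTRG.15550, was the most abundant, with 171, 159.6 and 166 FPKM at 40 °C and 208, 216 and 209.6 FPKM at 25 °C. It fell by a log2 value of 0.26, and all 3 libraries at 40 °C lay below the 3 at 25 °C. The merged calreticulin locus MSTRG.9170 (chromosome 5, 21862953 to 21884307) moved the other way. It had 61.9, 67.0 and 62.3 FPKM at 40 °C with melatonin, 86.3, 83.1 and 80.4 FPKM at 40 °C without it, and 48.1, 46.0 and 50.7 FPKM at 25 °C. The rise was 0.88 ± 0.05 and the melatonin difference -0.58 ± 0.05 (edgeR adjusted p of 2.3e-10 and 6.2e-08).

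Among the trimming enzymes, the α-mannosidase MSTRG.7776 rose by a log2 change of 0.99 ± 0.11, to 10.6 ± 0.4 FPKM at 40 °C against 5.67 ± 0.12 FPKM at 25 °C (SD, n = 3 each). The β subunit of glucosidase II, which removes glucose from the glycan, fell at the merged locus MSTRG.23207, with 22.5, 24.7 and 22.9 FPKM at 25 °C, 15.8, 16.6 and 15.7 FPKM at 35 °C and 10.97, 10.2 and 10.6 FPKM at 40 °C. Its 3 groups did not overlap, and the log2 change was -1.05 ± 0.05 at 40 °C (edgeR adjusted p of 1.0e-10). The glucosyltransferase UGGT, MSTRG.9076, which puts a glucose back on unfolded glycoproteins, had 23.7 FPKM on average at 40 °C with melatonin and 17.2 FPKM without. Over the class, 1 of 10 was higher (10%, against 32.9% of all genes) and 3 lower (30%, against 26.2%) with melatonin at 40 °C. Library totals gave 4 higher and 2 lower.

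Protein disulfide isomerases (PDIs), which form and exchange disulfide bonds in folding proteins, rose at several loci with 40 °C and fell at others. The class summed to 371 ± 1 FPKM at 25 °C, 322 ± 3 FPKM at 35 °C and 509 ± 15 FPKM at 40 °C (SD, n = 3 each). Of 14 tested members, 2 rose (14.3%, against 25.5% of all genes) and 6 fell (42.9%, against 23.6%) at 35 °C against 25 °C. At 40 °C against 25 °C, 6 rose (42.9%, against 37.3%) and 3 fell (21.4%, against 38.6%). The PDI locus MSTRG.5074 (chromosome 3, 19988402 to 20004522, plus strand, overlapping a locus on the other strand) had 38.7, 38.2 and 38.1 FPKM at 40 °C with melatonin. In the groups without melatonin it had 21.5, 19.9 and 22.3 FPKM at 25 °C, 16.5, 16.4 and 17.7 FPKM at 35 °C and 58.4, 58.8 and 60.2 FPKM at 40 °C. These 4 groups did not overlap, and the log2 change was -0.39 ± 0.05 at 35 °C, 1.57 ± 0.05 at 40 °C and -0.82 ± 0.05 for melatonin at 40 °C (edgeR adjusted p of 1.0e-05, 5.6e-13 and 2.1e-09).

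Other PDI loci rose at 40 °C by less. MSTRG.11222 rose by a log2 change of 1.33 and MSTRG.1662 by 1.15. The most abundant, MSTRG.19208 (chromosome 11, 20910823 to 20916878, minus strand), had 97.2, 101 and 100.5 FPKM at 40 °C with melatonin, 169.6, 172 and 172 FPKM at 40 °C without it, and 114, 116 and 118 FPKM at 25 °C. With melatonin at 40 °C the level was thus below that at 25 °C, and the log2 difference from 40 °C without melatonin was -0.97 ± 0.03 (edgeR adjusted p of 6.5e-12). At 35 °C it had 92.8 ± 1.4 FPKM with melatonin and 88.4 ± 3.2 FPKM without (SD, n = 3 each). The PDI MSTRG.19033 went the opposite way with heat, with 85.5, 85.5 and 84.8 FPKM at 25 °C, 62.7, 63.0 and 58.9 FPKM at 35 °C and 40.0, 41.5 and 40.7 FPKM at 40 °C, and fell by 0.98 on the log2 scale at 40 °C.

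ERO1 is the oxidase that recharges PDI, and its loci parted under melatonin. MSTRG.22390 had 22.5, 24.2 and 25.6 FPKM at 40 °C with melatonin, 9.22, 12.5 and 11.5 FPKM at 40 °C without it, and 7.23, 6.76 and 7.03 FPKM at 25 °C, with a log2 change of 0.92 ± 0.09 for melatonin (edgeR adjusted p of 8.0e-07). MSTRG.11342 had 7.55, 8.48 and 10.3 FPKM at 40 °C with melatonin, 11.9, 15.1 and 13.3 FPKM at 40 °C without it, and 7.54, 8.18 and 6.80 FPKM at 25 °C, with a log2 change of -0.81 ± 0.12 for melatonin (edgeR adjusted p of 4.4e-05). Both rose at 40 °C against 25 °C, and with melatonin at 40 °C the libraries of each lay clear of those without it. Over the class, 4 members were higher (28.6%, against 32.9% of all genes) and 5 lower (35.7%, against 26.2%) with melatonin at 40 °C. Library totals gave 7 higher and 4 lower.

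**Figure D3:**
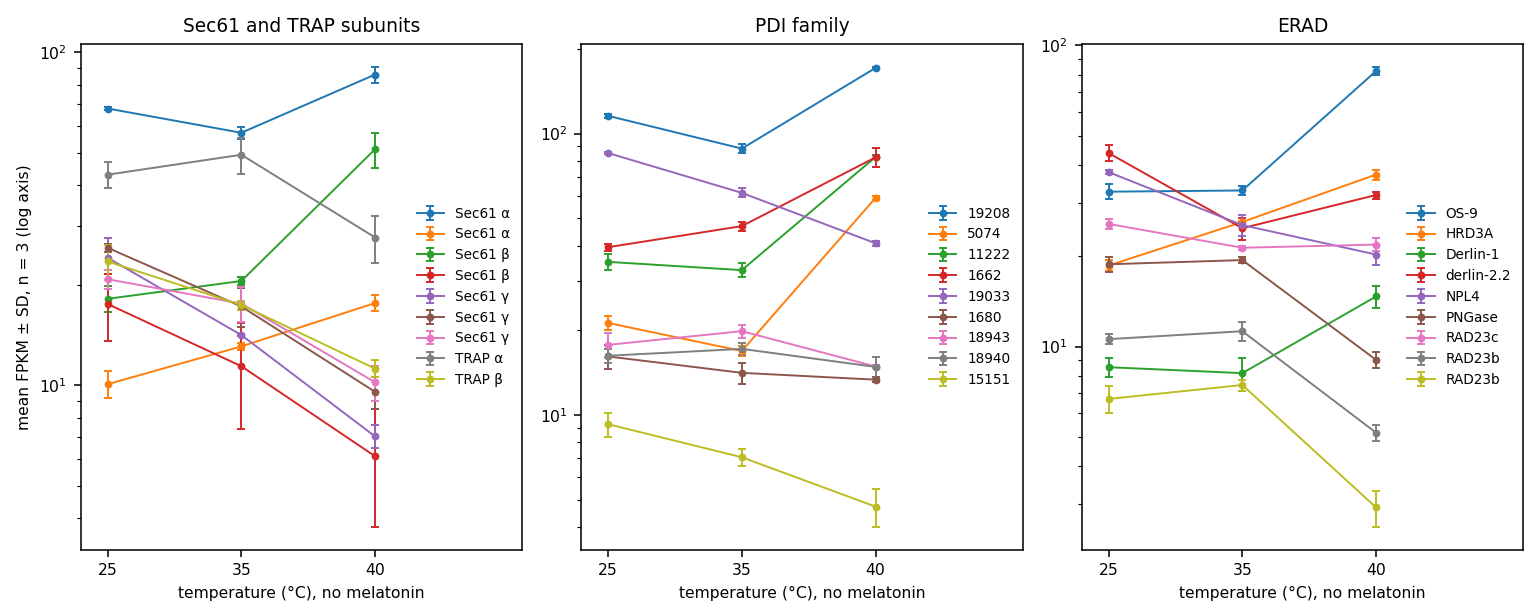
Mean FPKM (log axis) with SD over 3 libraries at 25, 35 and 40 °C without melatonin, for loci of Sec61 and TRAP, of PDI and of ERAD; numbers in the PDI legend are MSTRG locus numbers, and names that recur are separate loci. Within each panel some loci rise and some fall towards 40 °C, such as the PDIs MSTRG.5074 and MSTRG.19033.

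COPII genes build the coat of vesicles that leave the ER. Of 19 tested, 11 rose (57.9%, against 37.3% of all genes) and 5 fell (26.3%, against 38.6%) at 40 °C against 25 °C, and the median log2 change was 0.40. The difference between the class and all genes was not tested. SEC12 is the exchange factor that loads the GTPase SAR1 with GTP and so starts coat assembly. Its locus MSTRG.15740 (chromosome 9, 8382187 to 8398305, plus strand, overlapping a locus on the other strand) had 8.06, 8.27 and 8.47 FPKM at 25 °C, 14.2, 21.5 and 20.3 FPKM at 35 °C and 45.7, 48.4 and 42.2 FPKM at 40 °C. The level was higher at each temperature without overlap, with a log2 change of 1.11 ± 0.11 at 35 °C and 2.55 ± 0.12 at 40 °C against 25 °C (edgeR adjusted p of 1.4e-06 and 4.3e-11).

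The same SEC12 locus was lower with melatonin at both temperatures. MSTRG.15740 had 30.4, 29.3 and 31.2 FPKM at 40 °C with melatonin and 13.7, 13.1 and 13.0 FPKM at 35 °C with melatonin. The log2 difference was -0.78 ± 0.11 at 40 °C and -0.60 ± 0.11 at 35 °C (edgeR adjusted p of 2.6e-05 and 0.0012). In neither case did the libraries with melatonin overlap those without. Another SEC12 locus, MSTRG.11755, rose by 1.21 at 40 °C against 25 °C, and MSTRG.5010 was higher with melatonin at 40 °C by a log2 change of 0.48.

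The coat subunits themselves were mixed. A Sec23/Sec24 locus, MSTRG.22362, which belongs to the inner coat that gathers cargo, had 37.7, 39.6 and 39.0 FPKM at 40 °C and 19.4, 17.3 and 19.4 FPKM at 25 °C, and rose by a log2 change of 1.14 ± 0.06. Sec24 at MSTRG.2064 fell by 0.98 on the log2 scale, to 7.24 ± 0.63 FPKM at 40 °C against 15.2 ± 0.4 FPKM at 25 °C (SD, n = 3 each). SEC13, part of the outer cage, rose at MSTRG.14079 (0.44) and fell at MSTRG.18424 (-0.59). The GTPase SAR1A at MSTRG.19207, the most abundant COPII member, had 134, 134 and 134 FPKM at 25 °C, 82.6, 87.8 and 82.7 FPKM at 35 °C and 116, 111 and 115 FPKM at 40 °C. It was lowest at 35 °C in every library, with a log2 change of -0.73 ± 0.04 there (edgeR adjusted p of 1.4e-09). Another SAR1A locus, MSTRG.8073, had 0.299, 0.283 and 0.416 FPKM at 40 °C with melatonin and 2.14, 3.14 and 2.66 FPKM at 40 °C without it, and had no count in the 3 libraries at 25 °C. With melatonin at 40 °C, 4 COPII members were higher (21.1%, against 32.9% of all genes) and 11 lower (57.9%, against 26.2%), and with library totals 5 and 8.

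ERAD was the largest class. It summed to 802 ± 12 FPKM at 40 °C with melatonin, 1087 ± 27 FPKM at 40 °C without it, and 763 ± 16 FPKM at 25 °C (SD, n = 3 each). Of 37 members, 16 rose (43.2%, against 37.3% of all genes) and 13 fell (35.1%, against 38.6%) at 40 °C against 25 °C. The median log2 change was 0.08, so some members carried the higher sum. OS-9, the lectin that reads the trimmed glycans of misfolded glycoproteins, was at MSTRG.6104 (chromosome 3, 37539196 to 37544126, plus strand). It had 49.3, 48.3 and 49.6 FPKM at 40 °C with melatonin, 85.0, 79.8 and 81.9 FPKM at 40 °C without it, and 30.9, 32.5 and 34.6 FPKM at 25 °C. Its level at 40 °C with melatonin stood between the other groups without overlap, with a log2 change of 1.42 ± 0.05 for heat and -0.94 ± 0.05 for melatonin (edgeR adjusted p of 1.9e-12 and 5.8e-10).

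HRD3A, the scaffold that hands substrates to the HRD1 ligase, rose at MSTRG.14520, with 27.9, 29.6 and 29.5 FPKM at 40 °C with melatonin. Without melatonin it had 19.4, 18.2 and 18.1 FPKM at 25 °C, 25.6, 26.0 and 26.1 FPKM at 35 °C and 35.6, 38.1 and 38.1 FPKM at 40 °C. Each temperature stood clear of the lower one, with a log2 change of 1.09 ± 0.05 at 40 °C against 25 °C and -0.55 ± 0.05 for melatonin at 40 °C. Derlins are thought to form part of the channel by which substrates leave the ER. Derlin-1 at MSTRG.8389 rose by 0.87, with 14.7 ± 1.2 FPKM at 40 °C and 8.54 ± 0.64 FPKM at 25 °C (SD, n = 3 each). Derlin-2.2 at MSTRG.22666 fell by 0.89 on the log2 scale at 35 °C and by 0.37 at 40 °C.

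Among ERAD members that reached 5 FPKM in a group, the largest melatonin differences were in E3 ubiquitin ligases, which tag substrates. MSTRG.24723 (contig ctg85, 77430 to 78170, minus strand) had 46.5, 41.2 and 44.8 FPKM at 40 °C with melatonin, 227, 228 and 223 FPKM at 40 °C without it, and 52.6, 58.4 and 44.0 FPKM at 25 °C. With melatonin its level overlapped that at 25 °C, and only the libraries at 40 °C without melatonin were high. The log2 change was 2.22 ± 0.08 for heat at 40 °C and -2.55 ± 0.08 for melatonin at 40 °C (edgeR adjusted p of 3.7e-12 and 3.5e-12). MSTRG.6859 (chromosome 4, 10228778 to 10230931, minus strand) had 17.3, 16.3 and 17.0 FPKM at 40 °C with melatonin, 48.7, 54.2 and 54.4 FPKM at 40 °C without it, and 19.9, 23.0 and 20.6 FPKM at 25 °C. Its libraries with melatonin lay below those of both other groups, with a log2 difference of -1.83 ± 0.11 for melatonin (edgeR adjusted p of 1.8e-09).

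Both ligases share a KEGG entry with 5 other tested members. Of these 7 genes 3 rose and 3 fell at 40 °C against 25 °C, where 37.3% of all genes rose and 38.6% fell. The RING finger locus MSTRG.16980 of that entry had 33.8, 33.0 and 30.8 FPKM at 40 °C with melatonin, 17.6, 18.3 and 17.5 FPKM at 40 °C without it, and 38.9, 41.1 and 39.9 FPKM at 25 °C. It fell with heat and was higher with melatonin, the reverse of MSTRG.24723, with log2 changes of -1.07 ± 0.05 and 0.68 ± 0.05 (edgeR adjusted p of 1.1e-10 and 5.1e-08). Another E3 ligase, MSTRG.19766, rose by a log2 change of 1.28 at 40 °C, to 81.5 ± 4.1 FPKM against 35.6 ± 2.5 FPKM at 25 °C (SD, n = 3 each). With melatonin at 40 °C it had 92.0 ± 4.5 FPKM and was not called.

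Among genes that act after ubiquitination, the CDC48 locus MSTRG.22285, which is merged, had 135, 142 and 144 FPKM at 40 °C with melatonin, 179, 177 and 201 FPKM at 40 °C without it, and 141, 138 and 144 FPKM at 25 °C. It rose by a log2 change of 0.48 ± 0.06 at 40 °C, and the log2 difference with melatonin there was -0.60 ± 0.06 (edgeR adjusted p of 3.5e-06 and 7.5e-07). The merged locus MSTRG.11207, part of which is described as a UBX domain protein, a type of CDC48 adaptor, rose by 1.64. Other partners went both ways. NPL4, a CDC48 cofactor, fell by 0.82 on the log2 scale at MSTRG.21711, and peptide N-glycanase, which strips glycans from extracted proteins, fell by 0.96 at MSTRG.12333. UFD1, which acts together with NPL4, was annotated at 5 tested loci. Of these 2 rose and 1 fell at 40 °C against 25 °C, where 37.3% of all genes rose and 38.6% fell. MSTRG.6744 rose by a log2 change of 0.46, to 25.6 ± 1.5 FPKM at 40 °C against 19.7 ± 1.3 FPKM at 25 °C, and MSTRG.19886 fell by 0.48 on the log2 scale, to 23.8 ± 2.6 FPKM against 35.4 ± 5.1 FPKM (SD, n = 3 each).

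RAD23 carries ubiquitinated proteins to the proteasome, and its b-type loci fell at 40 °C. MSTRG.8019 had 10.4, 9.80 and 9.71 FPKM at 40 °C with melatonin, 4.81, 5.40 and 5.31 FPKM at 40 °C without it, and 10.4, 10.3 and 11.05 FPKM at 25 °C. Its level with melatonin reached into the range at 25 °C, with log2 changes of -0.94 ± 0.06 for heat and 0.76 ± 0.06 for melatonin (edgeR adjusted p of 4.6e-09 and 1.2e-07). MSTRG.17156 fell by 1.11 on the log2 scale and was higher with melatonin by 0.70. RAD23c at MSTRG.20576 was lower with melatonin by a log2 difference of -0.42, and its log2 change with heat was -0.14, a call lost with DESeq2 and without any of 4 libraries (replicates 2 and 3 at 25 °C, replicates 1 and 3 at 40 °C). Over the class, 8 members were higher (21.6%, against 32.9% of all genes) and 15 lower (40.5%, against 26.2%) with melatonin at 40 °C, and with library totals 11 and 13.

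**Figure D4:**
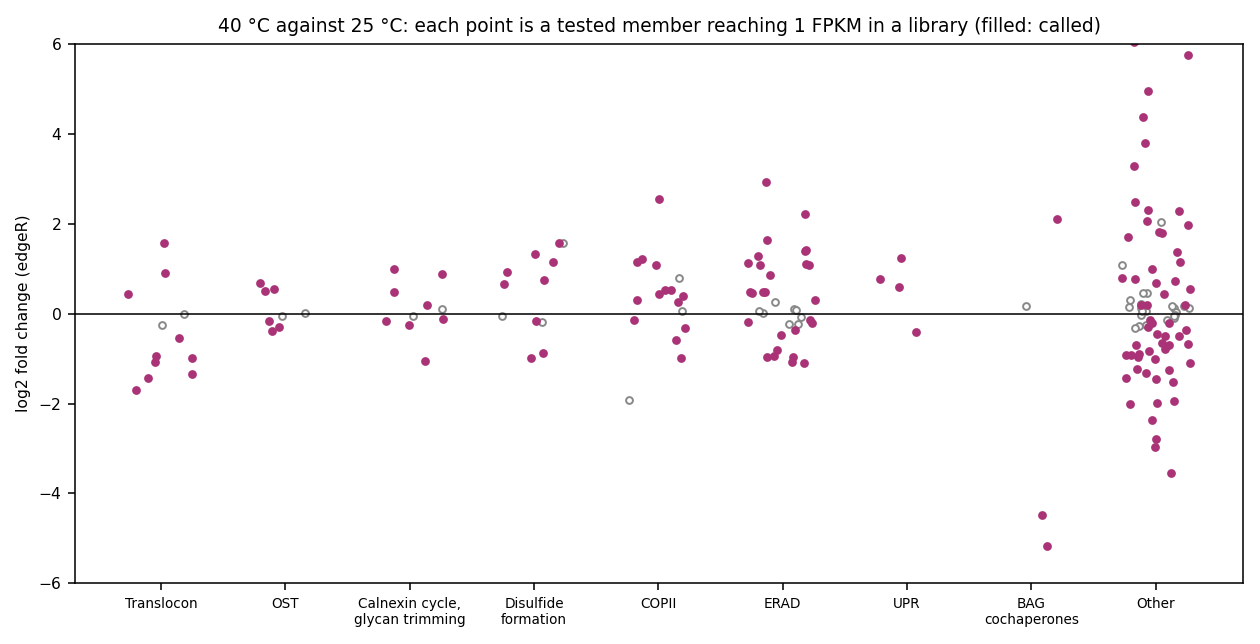
Log2 fold change at 40 °C against 25 °C (edgeR) of 186 tested members that reached 1 FPKM in a library, by role; filled points were called, and 3 members lie outside the axis. COPII and ERAD points lie on both sides of 0, with 11 and 16 called higher (57.9% and 43.2%, against 37.3% of all genes). The BAG points at the bottom are MSTRG.16842 and MSTRG.5478.

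The members placed under the UPR by words in their descriptions summed to 96.1 ± 1.1 FPKM at 40 °C with melatonin, 136 ± 4 FPKM at 40 °C without it, and 74.9 ± 1.2 FPKM at 25 °C (SD, n = 3 each). Of 6 tested, 3 were higher (50%, against 37.3% of all genes) and 2 lower (33.3%, against 38.6%) at 40 °C against 25 °C. Most of the sum was the α subunit of translation initiation factor eIF2, MSTRG.16726 (chromosome 9, 31156561 to 31161237, minus strand), whose phosphorylation slows translation. It was put in this class by the words of its description alone, so the sum does not stand for the UPR as a whole. MSTRG.16726 had 62.5, 60.6 and 60.8 FPKM at 40 °C with melatonin. Without melatonin it had 43.0, 42.7 and 45.6 FPKM at 25 °C, 57.9, 59.4 and 53.4 FPKM at 35 °C and 92.6, 99.7 and 99.0 FPKM at 40 °C. Each temperature stood clear of the lower one, with a log2 change of 0.32 ± 0.06 at 35 °C, 1.24 ± 0.06 at 40 °C and -0.86 ± 0.06 for melatonin at 40 °C (edgeR adjusted p of 3.3e-04, 5.1e-11 and 8.7e-09).

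The IRE1-type sensor was read from 6 loci described as endoribonuclease, all on chromosome 10 between 31465988 and 31702867, of which MSTRG.18317, MSTRG.18318, MSTRG.18319 and MSTRG.18322 stayed under 0.5 FPKM. MSTRG.18312 had 10.6, 10.9 and 10.5 FPKM at 35 °C and 11.4, 12.7 and 11.8 FPKM at 40 °C with melatonin. Without melatonin it had 10.6, 11.8 and 10.5 FPKM at 25 °C, 14.4, 16.0 and 14.5 FPKM at 35 °C and 17.5, 17.8 and 17.4 FPKM at 40 °C. Both heat groups without melatonin stood above 25 °C, and both groups with melatonin stood below the groups without it at the same temperature. The log2 change was 0.39 ± 0.06 at 35 °C, 0.77 ± 0.06 at 40 °C, -0.60 ± 0.06 for melatonin at 35 °C and -0.74 ± 0.06 for melatonin at 40 °C (edgeR adjusted p of 9.5e-05, 2.4e-08, 5.5e-06 and 7.6e-08). MSTRG.18327, near the other end of the stretch, fell by 0.41 on the log2 scale at 40 °C. Splicing of a target mRNA was not measured.

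BAG proteins bind HSP70 and exchange its nucleotide, and 2 of them fell further than any other member with a role that reached 5 FPKM in a group. MSTRG.16842 (chromosome 9, 32671068 to 32673278, minus strand) had 1.59, 2.77 and 2.50 FPKM at 40 °C with melatonin. Without melatonin it had 20.01, 21.8 and 19.7 FPKM at 25 °C, 6.77, 7.6 and 5.33 FPKM at 35 °C and 0.578, 0.581 and 0.436 FPKM at 40 °C. The level was lower at each higher temperature and, at 40 °C, higher with melatonin, in each case without overlap. The log2 change was -1.70 ± 0.20 at 35 °C, -5.16 ± 0.24 at 40 °C and 1.9 ± 0.23 for melatonin at 40 °C (edgeR adjusted p of 5.9e-06, 5.2e-11 and 4.5e-06).

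MSTRG.5478 fell likewise, with 0.540, 0.0462 and 0.466 FPKM at 40 °C and 8.95, 8.12 and 8.13 FPKM at 25 °C, a log2 change of -4.47 ± 0.52. In contrast, Rhsim13G0066900 rose at 40 °C, with 3.86, 4.88 and 4.80 FPKM against 0.860, 1.56 and 0.901 FPKM at 25 °C, a log2 change of 2.11 ± 0.23 (edgeR adjusted p of 7.1e-07). Of the 7 BAG members, 5 were tested, and 1 rose (20%, against 37.3% of all genes) and 2 fell (40%, against 38.6%) at 40 °C. The most abundant of them, MSTRG.7279, was not called at 40 °C against 25 °C and rose at 40 °C against 35 °C.

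Members without a role in their description held some of the most abundant genes. A CCCH zinc finger gene under the KEGG entry of IRE1, MSTRG.16315, had 237, 228 and 228 FPKM at 40 °C with melatonin. Without melatonin it had 105, 117 and 106 FPKM at 25 °C, 165, 178 and 185 FPKM at 35 °C and 331, 336 and 344 FPKM at 40 °C. It was higher at each temperature and, at 40 °C, lower with melatonin, without overlap, with a rise of 1.71 ± 0.05 on the log2 scale at 40 °C. Its description names no ER function. MSTRG.15294, a hypothetical protein under the KEGG entry of small heat shock proteins, had 116, 113 and 116 FPKM at 40 °C and 22.3, 27.8 and 25.0 FPKM at 25 °C. Its rise of 2.29 ± 0.07 therefore belongs to a gene that the table's entry, though not its description, places with the chaperones, as do 21 of the 109. The locus MSTRG.9386, a hypothetical protein under the entry of calreticulin, fell by 1.0 on the log2 scale, to 103 ± 2 FPKM at 40 °C against 219 ± 6 FPKM at 25 °C (SD, n = 3 each).

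A locus described as a basic leucine zipper protein, MSTRG.4939, spans chromosome 3 from 15435451 to 15612486 and overlaps other loci. The words used for the UPR, bZIP among them, do not occur in its description, so this locus was not counted there. MSTRG.4939 had 6.496, 7.35 and 5.65 FPKM at 40 °C with melatonin. In the groups without melatonin the level was 2.59, 2.19 and 2.22 FPKM at 25 °C, 5.55, 6.17 and 5.73 FPKM at 35 °C and 1.59, 1.35 and 1.69 FPKM at 40 °C. The level was thus high at 35 °C and at 40 °C with melatonin, and the log2 change for melatonin at 40 °C was 1.88 ± 0.14 (edgeR adjusted p of 2.0e-08). The oxidase MSTRG.22845, described as the enzyme that makes ethylene, fell by 1.99 on the log2 scale at 40 °C, and the uncharacterized MSTRG.22186, which overlaps a locus on the same strand, fell by 2.98.

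**Figure D5:**
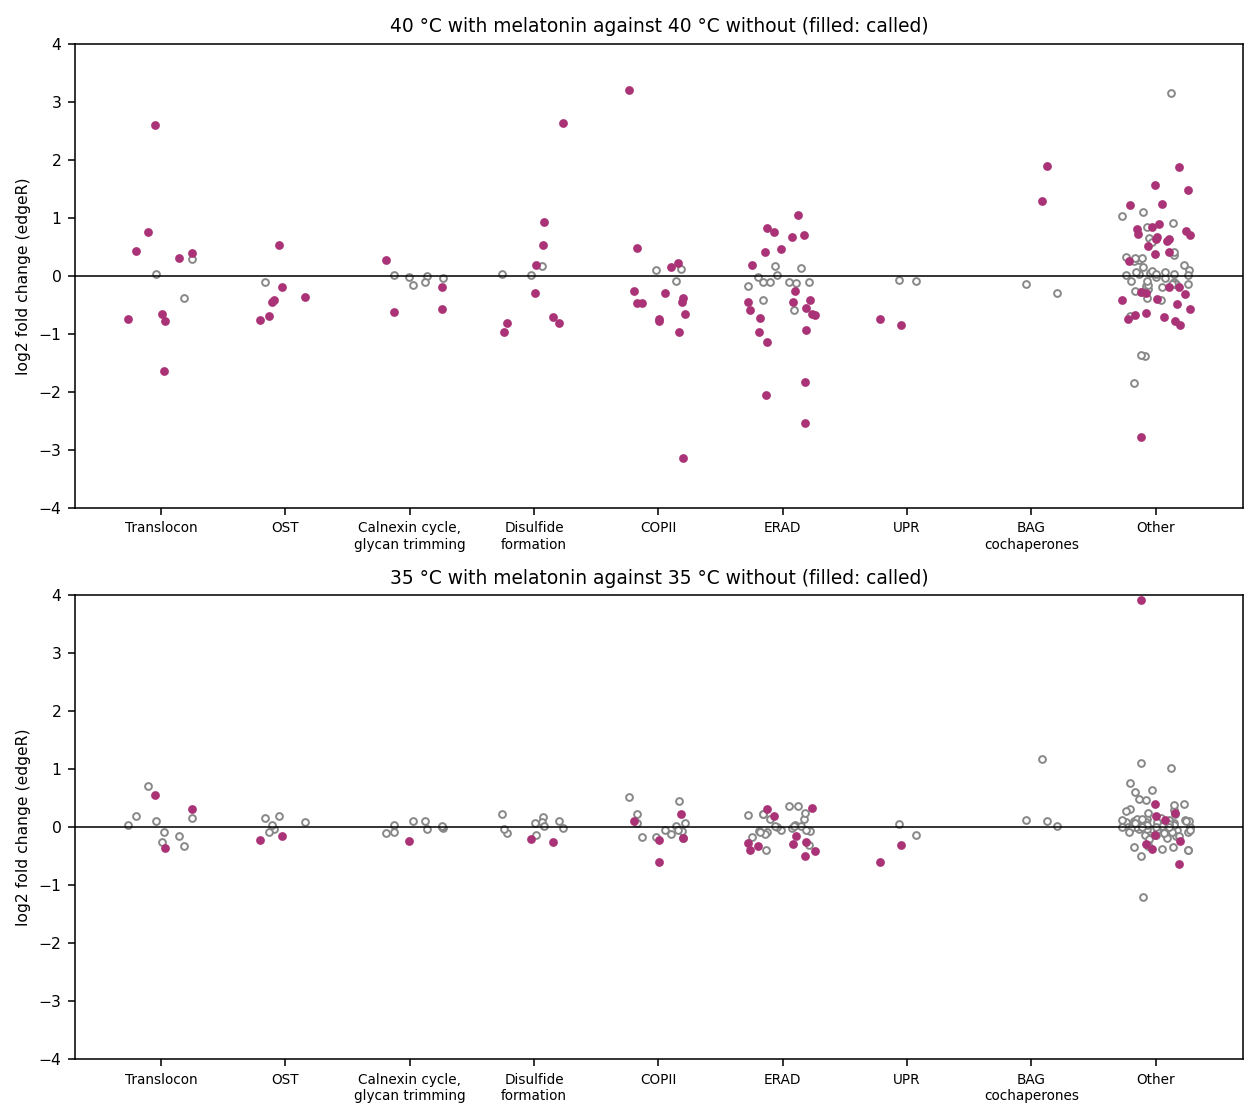
Log2 fold change with melatonin against without (edgeR) for 186 tested members that reached 1 FPKM in a library, at 40 °C (upper panel) and 35 °C (lower panel), by role; filled points were called, and 1 member at 40 °C lies outside the axis. At 40 °C 11 COPII and 15 ERAD members were lower (57.9% and 40.5%, against 26.2% of all genes), with MSTRG.24723 at -2.55, and at 35 °C the called points are fewer.

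Of 41 KEGG entries with at least 2 tested members, 20 held both a member that rose and one that fell at 40 °C against 25 °C (48.8%, against 53.1% of 1228 such entries over all genes), and 17 did so for melatonin at 40 °C (41.5%, against 44.5%). Single-library FPKM values did not overlap between the groups for 156 of the 206 tested members at 40 °C against 25 °C (75.7%, against 78.3% of all genes) and for 136 at 40 °C with melatonin against 40 °C without (66%, against 68.1%). At 35 °C against 25 °C this held for 122 (59.2%, against 58.4%), at 40 °C against 35 °C for 135 (65.5%, against 73.0%), and at 35 °C with melatonin against 35 °C without for 87 (42.2%, against 39.6%). FPKM lacks the TMM scaling, so members with almost no fitted change can be among them. MSTRG.14775 did not overlap with melatonin at 40 °C, at a log2 change of 0.003 that was not called. Of the 206, 28 were called in none of the 5 pairwise comparisons (13.6%, against 11.8% of all genes) and 18 in every one (8.74%, against 10.5%). Apart from 40 °C against 35 °C, these shares lay within a few percentage points of those over all genes.

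Other genes of the pathway, left out by the rule, were counted in the same way. Of the 65 tested genes with a chaperone word, 36 rose (55.4%) and 23 fell (35.4%) at 40 °C against 25 °C, with a median log2 change of 0.71, and 29 were higher (44.6%) and 23 lower (35.4%) with melatonin at 40 °C. Of the 51 tested genes shared with ubiquitin-mediated proteolysis or the proteasome, 15 rose (29.4%) and 24 fell (47.1%) at 40 °C, and 13 were higher (25.5%) and 18 lower (35.3%) with melatonin at 40 °C. Over all genes, 37.3% rose and 38.6% fell at 40 °C, and 32.9% were higher and 26.2% lower with melatonin. The difference between these lists and the members was not tested.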

How the data were processed

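Per the labels' protocols, RNA was extracted with Trizol, selected with oligo(dT) and made into libraries with a dUTP-marked second strand. The submitters' processing notes name StringTie 1.3.4d, HISAT2 2.0.4 and cutadapt 1.9 but neither their roles nor their order. Per the file headers, a table deposited by the authors holds a count and an FPKM value per gene and library. The deposited counts were raw whole numbers. Of counts between 1 and 20, 58.8 to 63.0% were even, so totals may exceed the number of fragments. In the column names, CK was taken to mean no melatonin and MT melatonin, since the series design calls the untreated control CK. There were 6 more per-sample columns, whose names begin with MT25 after the unit and so read as melatonin at 25 °C. They matched no sample of the labels and were not analysed here.

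Counts were tested with edgeR 4.0.16 (R 4.3.3) by glmQLFit and glmQLFTest, two-sided, with TMM scaling, filterByExpr, 5 group means over 15 libraries and no covariate. P-values were adjusted by Benjamini-Hochberg over 26183 genes in each comparison. SE was taken as the log2 fold change over the square root of F. The fit was tested on simulated data. Alternatives were library-total and RLE scaling, no filter, DESeq2 1.42.0, limma 3.58.1 on log2(FPKM + pseudocount), a replicate block, a 2-fold floor and leaving out each library. Tables and figures were made with Python 3.11.15, pandas 2.3.3 and matplotlib 3.10.9.

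Members and lists were chosen with earlier results of these data known. Roles were assigned by words in the descriptions. Named members were, in each role, those with the largest called rises and falls and at least 5 FPKM in the higher group, and the most abundant, and others were added by role after their values were seen. Fitted changes of genes at 0 in a whole group are not printed. Sequences were not used here.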

Additional observations from a re-analysis of the deposited data

Results flagged for a closer look

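The melatonin effect at 40 °C minus that at 35 °C was called, by edgeR's quasi-likelihood test of that difference, for 91 of the 206 tested members. It was positive for 40 (19.4%, against 27.2% of all genes) and negative for 51 (24.8%, against 21.3%). The 16 given here had the largest positive or negative called difference of their role, with at least 5 FPKM in a group. Each value is the log2 effect at 40 °C minus that at 35 °C. Among positive values, the difference was 2.04 for the TRAP β locus MSTRG.21306, 1.79 for the BAG locus MSTRG.16842, 0.91 for ERO1 at MSTRG.22390, 0.69 for the RING finger locus MSTRG.16980 and 0.37 for UGGT at MSTRG.9076. It was 0.32 for the oligosaccharyltransferase subunit at MSTRG.21834, 0.27 for the merged Sec24 locus MSTRG.21788 and 2.30 for the oxygenase MSTRG.17476. Among negative values, it was -2.08 for the E3 ligase MSTRG.6859, -1.56 for the merged Sec61 β locus MSTRG.968, -0.94 for the PDI MSTRG.19208 and -0.73 for SAR1A at MSTRG.9174. It was -0.61 for the merged calreticulin locus MSTRG.9170, -0.61 for the merged oligosaccharyltransferase locus MSTRG.5995, -0.56 for eIF2α at MSTRG.16726 and -1.01 for MSTRG.18281. The call was lost without any one of 6 libraries for MSTRG.21834 and of 3 for MSTRG.17476. Neither melatonin effect of MSTRG.17476 was itself called, with log2 changes of -1.20 ± 0.57 at 35 °C and 1.10 ± 0.50 at 40 °C. Groups had 3 libraries each, too few to look for single libraries that stand apart.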

How the results depend on the processing

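Each comparison was recomputed with other scalings, without the filter, with DESeq2 and limma, with a replicate block, with a 2-fold floor and without each library. With a floor of 2-fold, the counts higher and lower were 17 and 8 at 35 °C against 25 °C, 42 and 29 at 40 °C against 25 °C, 32 and 14 at 40 °C against 35 °C, 1 and 1 for melatonin at 35 °C, 12 and 9 for melatonin at 40 °C, and 8 and 9 for the difference of the melatonin effects. For melatonin at 35 °C (12 higher, 25 lower), library totals gave 33 and 14, limma on log2(FPKM + 1) 37 and 14, limma on log2(FPKM + 0.1) 35 and 13, and DESeq2 20 and 26. In the same order, all genes gave 3915 and 1779, 4330 and 2114, 3913 and 1932, and 3105 and 3453, against 2540 and 3223 with TMM. For melatonin at 40 °C (45 higher), library totals gave 71 and both limma fits 70. All genes there gave 10715 higher with library totals and 10423 and 10421 with limma, against 8605 with TMM. The limma fits had another filter, on FPKM, and tested 22335 genes. The cause of these shifts beyond the scaling itself was not tested. Without 1 library at a time, the counts higher and lower were 39 to 42 and 60 to 66 at 35 °C against 25 °C, 73 to 78 and 63 to 69 at 40 °C against 25 °C, and 79 to 85 and 47 to 52 at 40 °C against 35 °C. They were 4 to 11 and 17 to 21 for melatonin at 35 °C, 40 to 45 and 58 to 67 for melatonin at 40 °C, and 34 to 40 and 47 to 60 for the difference. Of 5700 recomputed values for named members, 5415 kept their direction and side of the threshold, 279 lost the call and 6 reversed. The reversals were at 40 °C against 35 °C, where MSTRG.15550 came to -0.02189 with library totals and to -0.03627 and -0.03647 with limma, and MSTRG.9386 to -0.004723, -0.01713 and -0.01726, against 0.11 and 0.13. Libraries with the same replicate number did not deviate together over all genes (30 pairs, correlations of -0.0561 to 0.0294, 0 above 0.1). A shared origin that moved few genes would not show in this check, so pairing by number is not excluded. A replicate block gave 42 and 67, 74 and 70, 82 and 49, 8 and 23, 44 and 63, and 39 and 50, in the order of the comparisons above. Depth limits the 56 members with a mean under 1 FPKM.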
